A study of Mus musculus with 6 samples.

Results

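The genes that present antigen to T cells were followed in the thyroid of mice with and without a thyroid-directed Tet1 deletion. They were 10 genes, taken by symbol from a table of 21878 genes, and all 10 were found. Those of class II presentation were H2-Aa, H2-Ab1, H2-Eb1, Cd74 and Ciita, and those of class I presentation were H2-K1, H2-D1, B2m, Tap1 and Psmb8. The thyroid glands came from female mice at 12 weeks of age, with 3 Thy-Tet1+/+ and 3 Thy-Tet1-/- libraries of RNA sequencing. Thy-Tet1-/- mice were bred from floxed Tet1 mice, and Thy-Tet1+/+ mice were their wild-type littermates. The comparison addresses which transcripts differ when Tet1, a 5-methylcytosine dioxygenase, is deleted in the thyroid.

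MHC class I molecules display peptides from inside the cell to CD8+ T cells and are made by nearly all nucleated cells. MHC class II molecules display peptides taken up from outside to CD4+ T cells and are made mainly by dendritic cells, B cells, macrophages and thymic epithelium. Epithelia, the thyroid follicle among them, can be induced to make class II by interferon gamma, which acts through the transactivator encoded by Ciita. The class I heavy chains, the class II chains, Tap1 and Psmb8 lie in the H-2 complex on chromosome 17, which varies strongly between inbred strains. On GRCm38.p6 these 7 genes run as H2-K1 at chr17:33996012-34000619, Tap1 at chr17:34187556-34197225, Psmb8 at chr17:34198195-34201454, H2-Ab1 at chr17:34263227-34269418, H2-Aa at chr17:34282744-34287823, H2-Eb1 at chr17:34305867-34316674 and H2-D1 at chr17:35263094-35267497. Outside it lie B2m at chr2:122147687-122153082, Ciita at chr16:10480014-10531064 and Cd74, each on a chromosome of its own.

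Class II promoters share an X box and a Y box, where the RFX and NF-Y complexes bind before CIITA joins them. Class I promoters carry an NF-kB site and an interferon-response element upstream. Searched on both strands in the 250 bases before and 50 after each annotated start (RefSeq, GRCm38.p6), the Y box core ATTGG was found in 6 of the 7 genes searched and the X box core AGNAACNG in 2, H2-Eb1 and Psmb8. Among all 32851 promoters, 37.4% held the Y box core and 17.4% the X box core. No promoter sequence is shown for H2-Ab1, Cd74 or Ciita. The class II promoters below are shown because H2-Eb1 varied most between libraries among the 10 genes, with H2-DMb1, a chain of the peptide-loading molecule H2-M, and H2-Aa beside it. Capitals mark the X and Y box cores, on either strand.
H2-Eb1: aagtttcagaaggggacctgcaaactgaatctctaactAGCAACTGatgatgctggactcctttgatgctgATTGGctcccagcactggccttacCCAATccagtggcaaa
H2-DMb1: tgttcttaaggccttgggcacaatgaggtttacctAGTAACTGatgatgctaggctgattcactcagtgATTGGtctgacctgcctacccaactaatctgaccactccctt
H2-Aa: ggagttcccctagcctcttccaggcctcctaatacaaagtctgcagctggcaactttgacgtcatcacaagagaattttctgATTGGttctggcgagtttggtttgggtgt

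The stretch of H2-Eb1 lies at chr17:34305737-34305847 on the plus strand, that of H2-DMb1 at chr17:34153061-34153171 on the plus strand and that of H2-Aa at chr17:34287843-34287953 on the minus strand, each from 130 to 20 bases before the start. In H2-Eb1 the X box core began 92 bases and the Y box core 59 bases before the start, 33 bases apart. In H2-DMb1 they began 95 and 61 bases before it, 34 bases apart. H2-Aa held the Y box core 48 bases before its start and no run that matched the X box letters in this window.

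The 2 class I heavy-chain promoters are shown because H2-K1 and H2-D1 did not move together across the libraries. Capitals mark the NF-kB core GGGNNTTCC, the interferon regulatory factor core AANNGAAA, read here on the opposite strand, and the Y box core.
H2-K1: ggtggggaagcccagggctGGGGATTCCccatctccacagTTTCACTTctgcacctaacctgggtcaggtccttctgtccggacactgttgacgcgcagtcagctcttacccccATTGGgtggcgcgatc
H2-D1: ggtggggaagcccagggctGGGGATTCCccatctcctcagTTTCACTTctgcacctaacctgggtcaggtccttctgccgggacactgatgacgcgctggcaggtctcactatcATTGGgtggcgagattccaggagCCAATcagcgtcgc

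They lie at chr17:34000348-34000477 on the minus strand and chr17:35262904-35263054 on the plus strand. Aligned without gaps from their first base, 117 of 130 bases were equal (90.0%). The NF-kB core was found in 3 of 7 genes (H2-Aa, H2-D1 and H2-K1) and in 5.82% of all promoters. The interferon regulatory factor core was found in 4 of 7 (B2m, H2-Aa, H2-D1 and H2-K1) and in 23.9% of all promoters.

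The libraries held 8867683 to 19950898 counts, the smallest being Thy-Tet1+/+ replicate 1. Thyroglobulin (Tg), the follicular storage protein, stood at 190900 to 313700 CPM (counts per 1000000 counts of a library, scaled by TMM) in all 6 libraries, although the deposited extraction text speaks of retinas. The 9 follicular markers summed to 256800 to 316900 CPM in Thy-Tet1+/+ and 193900 to 239700 CPM in Thy-Tet1-/-, nearly all of it Tg. In 5 of the 9 (55.6%, beside 26.8% of all tested genes) the groups did not overlap. Of these, Pax8 and Nkx2-1 were higher and Tg, Tshr and Iyd lower in Thy-Tet1-/-. Among the 9 markers 1 met the limits below as higher and 2 as lower, beside 5.54% and 3.66% of all tested genes. Their part in the values of the 10 genes was not tested. Tet1 counts were 172, 162 and 241 in Thy-Tet1-/- as labelled, above the 48, 71 and 62 of Thy-Tet1+/+. In CPM that was 9.37 to 12.25 against 3.44 to 5.695, so the count of the deleted gene went against its label. These counts cover the whole gene and do not show which exons were read. The paper reports lower TET1 staining in the thyroid of Thy-Tet1-/- mice. The genotypes below are those of the labels, and a signed difference is Thy-Tet1-/- minus Thy-Tet1+/+. Of 14143 genes with enough counts for the edgeR quasi-likelihood test, 1301 met the study's limits, a change of more than 1.5-fold either way with an unadjusted p under 0.05. The p-values set the difference between the groups against the spread between the 3 libraries of each group.

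All 10 genes passed the count filter, and none met these limits (0 of 10, against 9.20% of all tested genes). None had a Benjamini-Hochberg adjusted p under 0.05 in the edgeR test (0 of 10, against 0.113% of all tested genes). None had an unadjusted p under 0.05 there either (0 of 10, against 2676 of 14143 tested genes). With DESeq2, too, 0 of the 10 met the limits. Nor did any of the 10 have groups that did not overlap in CPM, which 26.8% of tested genes had. The estimated log2 fold change lay below 0 for 9 of the 10 and above 0 for 1, Ciita, with a median of -0.41 beside 0.00 over all tested genes. That median rested on single libraries: it was -0.06 without Thy-Tet1-/- replicate 2, -0.07 without Thy-Tet1+/+ replicate 2 and -0.74 without Thy-Tet1+/+ replicate 1. Scaled to 10 epithelial genes, which raised the median of all genes by 0.26, 7 of the 10 lay below 0, and so did 6 to 9 with single libraries left out. The epithelial scaling genes themselves had a median log2 fold change of -0.33, with 7 of 10 below 0. Scaling to them therefore raises the estimates of all genes. In tissue as a whole, fewer cells of a type and less RNA per cell cannot be told apart.

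**Figure D1:**
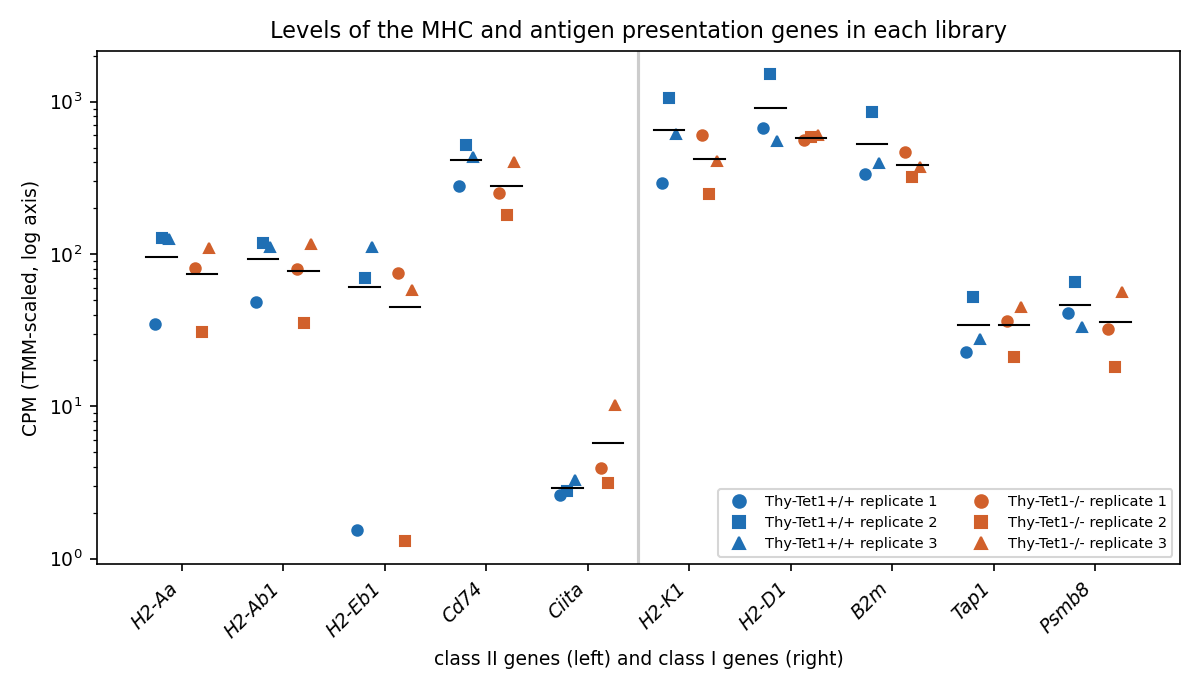
CPM of each gene on a log axis, 1 point per library, with black lines at the group means. The groups overlap for all 10 genes, and H2-Eb1 stands below 2 CPM in 1 library of each group.

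The class II alpha chain H2-Aa stood at 34.5, 127 and 125 CPM in Thy-Tet1+/+ replicates 1, 2 and 3 and at 81.3, 30.8 and 109 CPM in Thy-Tet1-/- replicates 1, 2 and 3. Its partner H2-Ab1, the A beta chain, stood at 48.8, 117 and 112 CPM against 80.3, 35.2 and 116 CPM. In each gene the same 2 libraries were lowest, Thy-Tet1+/+ replicate 1 and Thy-Tet1-/- replicate 2, and the groups overlapped. The log2 fold change was -0.38 ± 0.59 (SE, edgeR adjusted p = 0.779) for H2-Aa and -0.26 ± 0.48 (SE, edgeR adjusted p = 0.817) for H2-Ab1. For H2-Aa it was -0.03 without Thy-Tet1-/- replicate 2 and -0.78 without Thy-Tet1-/- replicate 3, and for H2-Ab1 0.07 and -0.69.

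H2-Eb1, the E beta chain, had 13, 1294 and 2014 counts in Thy-Tet1+/+ and 1385, 22 and 1147 counts in Thy-Tet1-/-. That is 1.54, 69.2 and 112 CPM against 75.5, 1.30 and 58.3 CPM. One library of each group had few H2-Eb1 reads, while the other 4 were within the range of H2-Aa. The highest library exceeded the lowest by 72.5-fold within Thy-Tet1+/+ and by 57.9-fold within Thy-Tet1-/-. The fold change between the groups was accordingly ill determined, at -0.44 ± 1.43 on the log2 scale (SE, edgeR adjusted p = 0.905), with a 95% interval from -3.85 to 2.96.

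The invariant chain Cd74, which holds class II chains until peptide is loaded, was the most abundant class II gene, at 281, 519 and 435 CPM in Thy-Tet1+/+ and 253, 180 and 404 CPM in Thy-Tet1-/-. Its log2 fold change was -0.56 ± 0.34 (SE, edgeR adjusted p = 0.427), and the 95% interval ran from -1.38 to 0.26. Without Thy-Tet1-/- replicate 3 the log2 fold change of Cd74 was -0.93, and without both that library and Thy-Tet1+/+ replicate 1 it was -1.14 (edgeR adjusted p = 0.284 and 0.157), past the fold and unadjusted p limits in each case. With a pan-leukocyte covariate it was -0.65 (adjusted p = 0.216) and also past them. Those 2 libraries held thymocyte and thymic epithelial transcripts, given further on, whose part in the level of Cd74 was not tested.

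Ciita, the transactivator of the class II genes, was the least abundant, with 22, 52 and 59 counts in Thy-Tet1+/+ and 72, 53 and 200 counts in Thy-Tet1-/-. In CPM these were 2.61, 2.78 and 3.27 against 3.92, 3.14 and 10.2, so that Thy-Tet1-/- replicate 3 stood apart and replicate 2 fell inside the control range. The log2 fold change was 0.99 ± 0.49 (SE, edgeR adjusted p = 0.327). The library highest in Ciita was not the one highest in H2-Aa or H2-Eb1. For H2-Ab1 that library, at 116 CPM, was nearly level with the highest, Thy-Tet1+/+ replicate 2 at 117 CPM. The libraries lowest in H2-Eb1, Thy-Tet1+/+ replicate 1 and Thy-Tet1-/- replicate 2, had Ciita at 2.61 and 3.14 CPM, the former the lowest of all. Without Thy-Tet1-/- replicate 2 Ciita passed the limits with a log2 fold change of 1.27 (edgeR adjusted p = 0.283), and without Thy-Tet1-/- replicate 3 the estimate was 0.28. The exons of Ciita overlap those of Dexi on the opposite strand over 329 bases, and the strand setting of the read counting is not given in the sources used here.

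The class I heavy chain H2-K1 was measured at 293, 1061 and 611 CPM in Thy-Tet1+/+ and 609, 247 and 405 CPM in Thy-Tet1-/-. H2-D1, the other classical heavy chain, was at 676, 1517 and 550 CPM against 558, 585 and 603 CPM. For both, Thy-Tet1+/+ replicate 2 was the highest library, but H2-K1 was low in Thy-Tet1+/+ replicate 1 and Thy-Tet1-/- replicate 2 and H2-D1 was not. The log2 fold change was -0.64 ± 0.50 (SE, edgeR adjusted p = 0.539) for H2-K1 and -0.65 ± 0.37 (SE, edgeR adjusted p = 0.392) for H2-D1. Without Thy-Tet1+/+ replicate 2 the log2 fold changes were -0.11 and -0.08, while without Thy-Tet1+/+ replicate 3 H2-D1 passed the limits at -0.92 (edgeR adjusted p = 0.267). In H2-D1, 4.64% of 100-base windows of the longest coding transcript recurred exactly in transcripts of other genes, H2-Q1 first among them, and in H2-K1 none of 1520 did.

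B2m encodes beta-2 microglobulin, the light chain of every class I molecule. It was at 336, 861 and 396 CPM in Thy-Tet1+/+ and 465, 321 and 373 CPM in Thy-Tet1-/-, with 1 library of the control group, replicate 2, above the other 5. Its log2 fold change of -0.46 ± 0.37 (SE, edgeR adjusted p = 0.547) became 0.08 without that library. Macrophage transcripts were also highest there: the summed CPM of 8 markers was 404 in Thy-Tet1+/+ replicate 2 and 109 to 214 in the other 5 libraries. Adgre1, which encodes the macrophage surface protein F4/80, was at 40.2 CPM in it. Parathyroid markers, 3 in number, were lowest there, at 89.2 CPM against 1641 to 12920 CPM. The part of either in the class I level was not tested.

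Tap1, a subunit of the transporter that carries peptides into the endoplasmic reticulum, was at 22.8, 52.1 and 27.6 CPM in Thy-Tet1+/+ and 36.3, 21.0 and 44.9 CPM in Thy-Tet1-/-. Psmb8, an interferon-inducible catalytic subunit of the immunoproteasome, was at 41.2, 65.3 and 33.2 CPM against 32.3, 18.3 and 56.6 CPM. Both were lowest in Thy-Tet1-/- replicate 2. The exons of Tap1 overlap those of Psmb9 on the opposite strand over 212 bases. The log2 fold change was -0.01 ± 0.38 for Tap1 (SE, edgeR adjusted p = 0.993) and -0.38 ± 0.43 for Psmb8 (SE, edgeR adjusted p = 0.679). For Psmb8 it was -0.06 without Thy-Tet1+/+ replicate 2 and -0.89 without Thy-Tet1-/- replicate 3. The intervals in the full fit, -0.92 to 0.90 for Tap1 and -1.41 to 0.64 for Psmb8, do not show that the groups were alike. Over the 10 genes, a two-sided exact permutation test of the mean CPM gave p from 0.2 to 1.0, where 0.1 is the smallest p that 3 against 3 allows.

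Per kilobase of the longest protein-coding transcript, B2m led with a mean of 533 CPM per kb over the 6 libraries, followed by H2-D1 at 356, H2-K1 at 332 and Cd74 at 245 CPM per kb. The A chains were at 74.9 (H2-Aa) and 70.1 (H2-Ab1), H2-Eb1 at 31.7, Psmb8 at 25.3, Tap1 at 11.6 and Ciita at 0.718 CPM per kb. Neighbours in this order overlapped over the libraries, except that Cd74 (128 to 368) lay above H2-Aa (27.3 to 113) and Tap1 (7.10 to 17.6) above Ciita (0.435 to 1.69 CPM per kb). With all annotated exons joined as the length, Cd74 (206) passed H2-K1 (183), and H2-Aa (22.3) fell below H2-Ab1 (33.1) and H2-Eb1 (27.2).

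Within the groups, the 10 genes varied more than most. The pooled standard deviation of log2 CPM within groups was 3.27 for H2-Eb1, 1.02 for H2-Aa and between 0.52 (Cd74) and 0.80 (H2-Ab1 and H2-K1) for the other genes, beside a median of 0.25 over all tested genes. The smallest of the 10 stood above 80.9% of tested genes.

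Ratios of 2 genes within a library do not depend on its depth. The ratio of H2-Eb1 to H2-Aa per kilobase was 0.0302, 0.369 and 0.605 in Thy-Tet1+/+ and 0.627, 0.0286 and 0.362 in Thy-Tet1-/-. The 6 libraries thus took 3 levels, each held by 1 library of either group: Thy-Tet1+/+ replicate 1 with Thy-Tet1-/- replicate 2, replicate 2 with replicate 3, and replicate 3 with replicate 1. The ratio of H2-K1 to H2-D1 fell into the same 3 pairs, at 0.564, 0.908 and 1.44 in Thy-Tet1+/+ and 1.42, 0.547 and 0.873 in Thy-Tet1-/-. The ratio of H2-Ab1 to H2-Aa ran from 0.834 to 1.31 and that of Cd74 to H2-Aa from 2.49 to 6.50. Both ratios were highest in the 2 libraries with little H2-Eb1.

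The order of these 3 pairs in H2-Eb1 recurred in some genes near it. H2-Eb1 itself was at 69.2 and 58.3 CPM in Thy-Tet1+/+ replicate 2 and Thy-Tet1-/- replicate 3. It was at 112 and 75.5 CPM in Thy-Tet1+/+ replicate 3 and Thy-Tet1-/- replicate 1, so these pairs lay close. D17H6S56E-5, a gene of the same complex, was at 3.68, 92.4 and 143 CPM in Thy-Tet1+/+ and 141, 4.03 and 96.6 CPM in Thy-Tet1-/-. Rps18, a ribosomal protein gene, was at 82.9, 212 and 348 CPM against 329, 74.9 and 214 CPM. In each the 3 pairs of libraries kept the order that H2-Eb1 gave. Both were chosen after their values were seen, and the Rps18 count may include reads of related copies.

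Along chromosome 17 from Tapbp to H2-M3 (chr17:33919478-37274485), 122 genes were tested. Of these, 37 (30.3%) had the 2 libraries lowest in H2-Eb1 as their own lowest, beside 6.13% of the 14021 genes elsewhere. In 9 of the 122 those libraries lay more than 1 log2 unit below the next, beside 5 of the 14021, and the 9 were Rps18, H2-DMb1, H2-Aa, H2-Eb1 itself, D17H6S56E-5, H2-Q6, H2-Q10, H2-T23 and H2-T22. The full order of 3 pairs was kept by 10 of 122 (8.20%) and by 0.763% elsewhere. Of the 9 genes just named, H2-DMb1, H2-Aa, H2-Q6, H2-Q10 and H2-T23 did not keep that order. These counts describe where the pattern lies, since H2-Eb1, which set it, is among the 122. H2-T23, which encodes the nonclassical molecule Qa-1, was at 11.6, 103 and 80.2 CPM in Thy-Tet1+/+ and 121, 7.94 and 64.5 CPM in Thy-Tet1-/-. H2-D1, between these genes, did not have the same libraries lowest. The 2 libraries lowest in H2-Eb1 were also highest in skeletal muscle markers. The summed CPM of 5 such markers was 4932 in Thy-Tet1+/+ replicate 1 and 5240 in Thy-Tet1-/- replicate 2. It was 573 and 2768 in Thy-Tet1+/+ replicates 2 and 3, and 74.1 and 13.5 in Thy-Tet1-/- replicates 1 and 3. Which property of the mice, of the tissue taken or of the read mapping goes with this pattern was not tested.

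**Figure D2:**
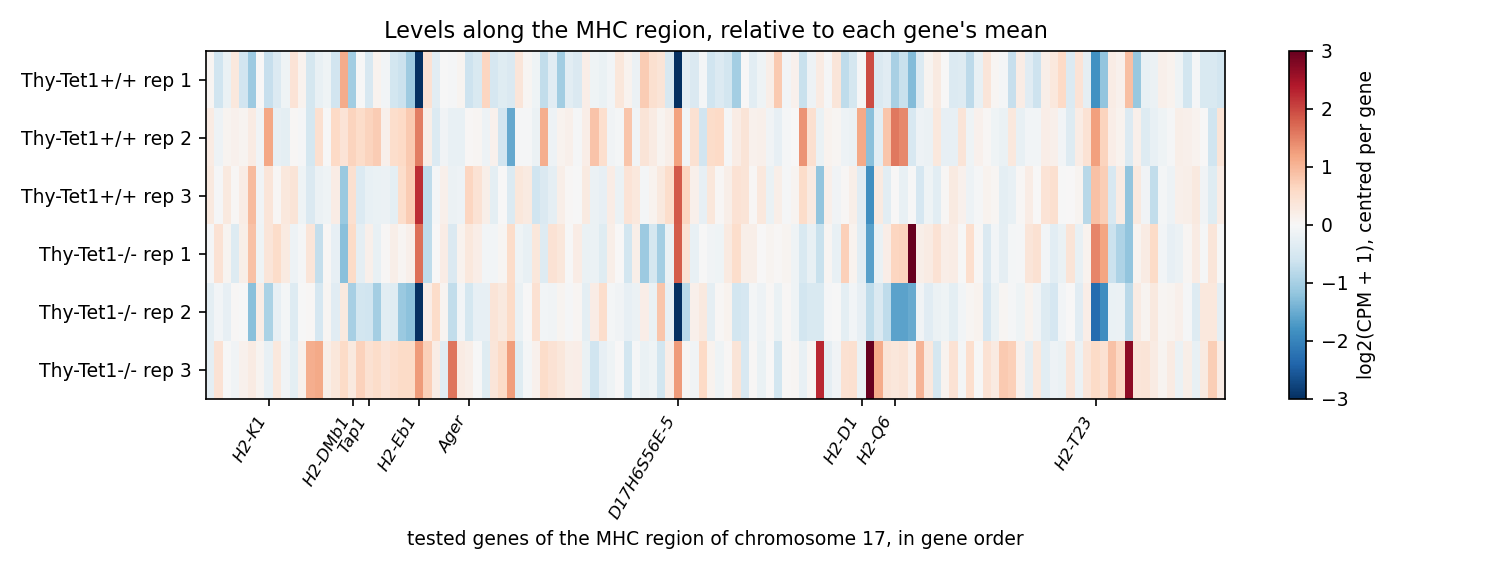
Heat map of 122 tested genes of the MHC region of chromosome 17 in gene order, 1 row per library, coloured by log2(CPM + 1) minus the mean of the gene. The rows of Thy-Tet1+/+ replicate 1 and Thy-Tet1-/- replicate 2 are blue at H2-Eb1, D17H6S56E-5 and H2-T23, while most genes between them are pale in all 6 libraries.

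The 5 genes outside the list whose centred log2 CPM lay closest to the mean profile of H2-Aa, H2-Ab1, H2-Eb1 and Cd74 over the 6 libraries were Arc, H2-T22, H2-DMb1, Tmprss13 and Upk3bl. The root mean square difference was 0.24, 0.39, 0.42, 0.44 and 0.47 log2 units. H2-Eb1 weighs most in this unscaled mean. Its standard deviation within groups was 3.27, beside 1.02 for H2-Aa, 0.80 for H2-Ab1 and 0.52 for Cd74. Arc had no more than 28 counts in any library. H2-DMb1, whose promoter is shown above with that of H2-Eb1, was at 5.46, 20.1 and 17.4 CPM in Thy-Tet1+/+ and 18.9, 5.63 and 15.2 CPM in Thy-Tet1-/-. Closest to H2-Eb1 alone were D17H6S56E-5 (0.42 log2 units) and H2-T23 (1.21 log2 units).

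Among the other genes of antigen presentation, 52 of 55 were tested, and 4 met the limits, all 4 higher in Thy-Tet1-/- and 0 lower (beside 5.54% higher and 3.66% lower over all tested genes). Their median log2 fold change was -0.08, and 14 of the 52 (26.9%) had groups that did not overlap. That share is near the 26.8% of all tested genes. None of the 52 had an adjusted p under 0.05 in edgeR. There 9 of the 52 had an unadjusted p under 0.05, beside 2676 of all 14143 tested genes. In DESeq2 4 had an adjusted p under 0.05, beside 1164 of the 17643 genes it gave a p-value. They were Irf1, Cd274, Cd1d1 and the chaperone gene Canx, the last named after its value was seen. Without both libraries high in thymocyte markers, a fit chosen after seeing the data, 3 genes were higher and 7 lower. Over all genes, 59.9% of the calls in that fit were higher. An unadjusted p under 0.05 was reached there by 2708 of 14223 tested genes.

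Of the other class II genes, 0 of 11 tested met the limits (beside 9.20% of all tested genes), and the median log2 fold change was 0.18. The RFX subunit gene Rfx5, which acts at the X box, was at 29.9, 33.2 and 33.5 CPM in Thy-Tet1+/+ and 39.4, 33.9 and 49.9 CPM in Thy-Tet1-/-, so that the groups did not overlap, with a log2 fold change of 0.35 ± 0.16 (SE, edgeR adjusted p = 0.302). Marchf1, a ubiquitin ligase that removes class II from the surface, gave -1.27 ± 0.59 (SE, edgeR adjusted p = 0.302). Ctss, the cathepsin that trims the invariant chain, was at 21.4, 157 and 52.7 CPM against 28.1, 21.5 and 38.4 CPM (edgeR adjusted p = 0.313). Both were highest in Thy-Tet1+/+ replicate 2, the library with most macrophage transcripts, and both passed the limits without Thy-Tet1+/+ replicate 1 (-1.64 for Marchf1 and -1.84 for Ctss on the log2 scale). Without Thy-Tet1+/+ replicate 2 the values were -0.56 for Marchf1 and -0.35 for Ctss.

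Of the other class I genes, 1 of 20 met the limits, beside 9.20% of all tested genes. Cd1d1, which presents lipids to NKT cells, was at 6.76, 1.87 and 2.77 CPM in Thy-Tet1+/+ and 18.2, 10.8 and 10.4 CPM in Thy-Tet1-/-, every Thy-Tet1-/- library above every control. Its log2 fold change was 1.82 ± 0.51 (SE, edgeR adjusted p = 0.144), and it met the limits under all 17 alternatives. Tapbp (tapasin), which couples class I to the transporter, gave -0.39 ± 0.13 (SE, edgeR adjusted p = 0.180), and Erap1, an aminopeptidase that trims peptides, gave -0.37 ± 0.11 (SE, edgeR adjusted p = 0.158). Both had groups that did not overlap but lay inside the fold limit. Of the 20, 16 had a log2 fold change below 0 and 4 above 0. Only 8 lay below 0 with epithelial scaling, which raises the estimates of all genes, or without Thy-Tet1+/+ replicate 2.

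Of the constitutive proteasome subunits that Psmb8 and its partners replace, 0 of 3 met the limits, beside 9.20% of all tested genes. Psmb6 gave -0.26 ± 0.11 (SE, edgeR adjusted p = 0.255), Psmb5 -0.23 ± 0.14 and Psmb7 -0.16 ± 0.12 on the log2 scale. The ratio of Psmb8 to Psmb5 per kilobase, immunoproteasome against its counterpart, was 0.343, 0.492 and 0.206 in Thy-Tet1+/+ and 0.271, 0.141 and 0.536 in Thy-Tet1-/-. It overlapped between the groups and was highest in Thy-Tet1-/- replicate 3.

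In the interferon gamma pathway 1 of 13 tested genes met the limits, beside 9.20% of all tested genes. Irf1, an interferon-induced transcription factor that acts on class I genes and Ciita, was at 30.02, 41.7 and 30.2 CPM in Thy-Tet1+/+ and 75.1, 61.2 and 109 CPM in Thy-Tet1-/-. All 3 Thy-Tet1-/- libraries lay above all controls, with a log2 fold change of 1.26 ± 0.25 (SE, edgeR adjusted p = 0.0958) that met the limits under all 17 alternatives (adjusted p 0.000146 to 0.324). Ifng itself had at most 6 counts in a library, and the difference between the groups was not detectable at this depth. Jak2 gave -0.27 ± 0.13 and Ifngr2 0.39 ± 0.20 on the log2 scale (SE, edgeR adjusted p = 0.325 and 0.338).

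Among costimulation and checkpoint ligands 2 of 5 tested met the limits, beside 9.20% of all tested genes. Cd274, which encodes PD-L1, was at 2.97, 4.33 and 3.22 CPM in Thy-Tet1+/+ and 10.3, 7.64 and 18.9 CPM in Thy-Tet1-/-, without overlap (log2 fold change 1.80 ± 0.39 SE, edgeR adjusted p = 0.101). It met the limits under all 17 alternatives. Icosl, the ligand of ICOS, was at 4.51, 9.36 and 6.21 CPM against 12.4, 10.4 and 16.2 CPM (0.95 ± 0.32, edgeR adjusted p = 0.189), and lost the call under 4 alternatives, among them those without Thy-Tet1-/- replicate 3 (0.75 on the log2 scale). Cd40, the partner of CD40 ligand on T cells, gave 0.94 ± 0.52 on the log2 scale with overlapping groups (edgeR adjusted p = 0.382), and passed the limits without Thy-Tet1+/+ replicate 2 (1.52). It was 0.60 without Thy-Tet1+/+ replicate 1, 0.63 without Thy-Tet1-/- replicate 3 and 0.31 without both libraries high in thymocyte markers.

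**Figure D3:**
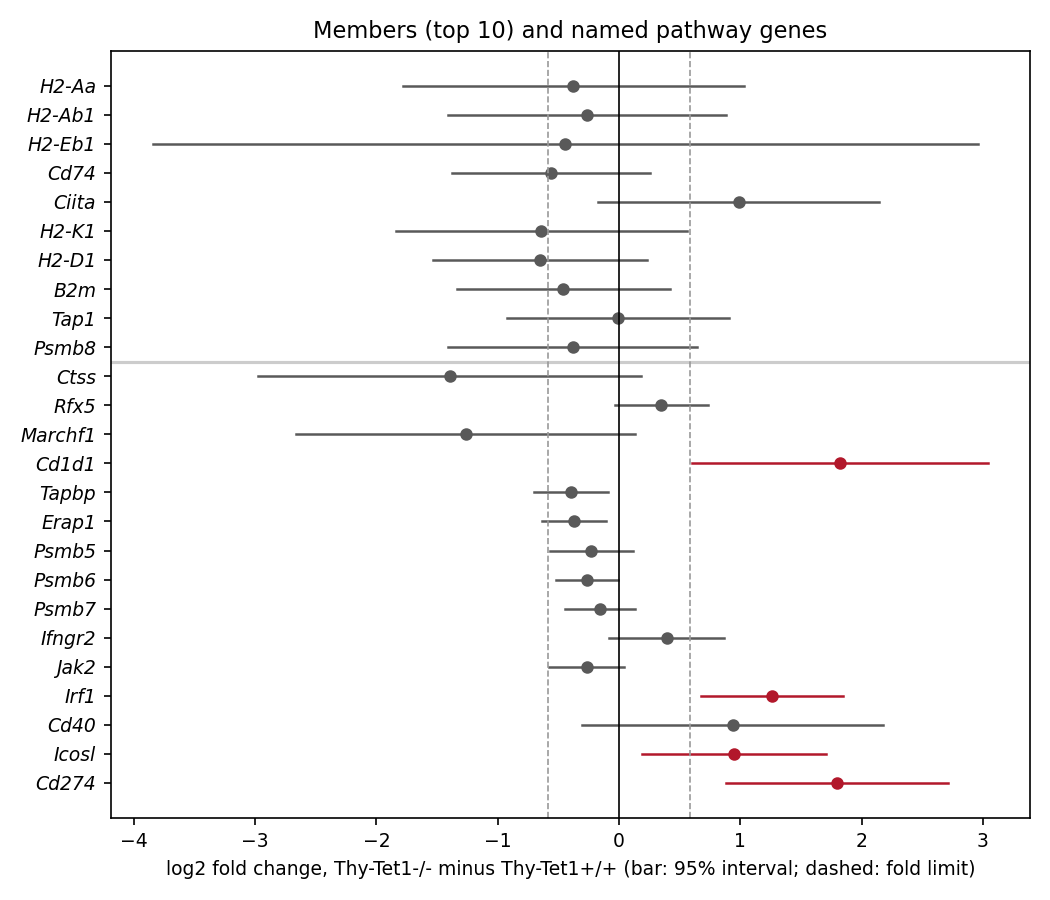
Log2 fold change of the 10 genes (top) and of the named pathway genes (below the line) with 95% intervals from the edgeR fit, red where the limits were met and grey elsewhere, with dashed lines at the fold limit of 1.5 either way. The intervals of all 10 genes cross 0, and the 4 red genes are Cd1d1, Irf1, Icosl and Cd274.

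Markers of the cells that make class II differed between libraries. Of 5 pan-leukocyte markers, 0 had groups that did not overlap, beside 26.8% of all tested genes. Their summed CPM ran from 75.7 to 135 in Thy-Tet1+/+ and from 56.5 to 318 in Thy-Tet1-/-. Coro1a, the most abundant, was at 117 CPM in Thy-Tet1-/- replicate 3 and at 16.4 to 28.0 CPM in the rest. The 9 dendritic markers summed to 41.9 to 45.3 CPM in Thy-Tet1+/+ and 43.6 to 62.5 CPM in Thy-Tet1-/-, of which Zbtb46 alone made 26.1 to 36.6 CPM. The mean log2 CPM of the 9, in which each marker weighs alike, ran from 0.37 to 1.35 in Thy-Tet1+/+ and from 0.78 to 2.16 in Thy-Tet1-/-, highest in replicate 3. All 8 dendritic markers tested had a log2 fold change above 0 and 0 of the 8 met the limits, beside 9.20% of all tested genes. The 8 B cell markers summed to 10.2 to 14.3 and 10.5 to 14.6 CPM, most of it Cd79b at 8.60 to 10.2 CPM, while Ms4a1, which encodes CD20, had at most 6 counts in a library.

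Macrophage markers, 8 in number, summed to 109 to 404 CPM in Thy-Tet1+/+ and 164 to 192 CPM in Thy-Tet1-/-, C1qa being the most abundant at 24.1 to 94.2 CPM. Adgre1 met the limits (-1.54 ± 0.63 on the log2 scale, edgeR adjusted p = 0.255), and lost them under 10 of 17 alternatives, with the smallest change without Thy-Tet1+/+ replicate 2 (-0.88). Without Thy-Tet1+/+ replicate 1 C1qa passed the limits (-0.86), and without Thy-Tet1+/+ replicate 2 it was 0.04. The 6 T cell markers summed to 94.6, 20.6 and 13.0 CPM in Thy-Tet1+/+ and 11.98, 9.30 and 378 CPM in Thy-Tet1-/-, Lck being the most abundant. The 4 immature thymocyte markers summed to 75.1 CPM in Thy-Tet1+/+ replicate 1, 323 CPM in Thy-Tet1-/- replicate 3 and at most 0.481 CPM in the other 4 libraries, with Rag1 at 350 and 2506 counts in the former 2. The 5 thymic epithelial markers summed to 27.1 and 263 CPM in those libraries, led by Prss16, and to at most 9.27 CPM elsewhere. Of the 5, Foxn1 had 134 counts in Thy-Tet1-/- replicate 3 but only 3 in Thy-Tet1+/+ replicate 1, its lowest library at 0.356 CPM. Aire had 36 and 2 counts in them. The 2 libraries with thymic transcripts differed in H2-Eb1, which was low in Thy-Tet1+/+ replicate 1 and not in Thy-Tet1-/- replicate 3.

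**Figure D4:**
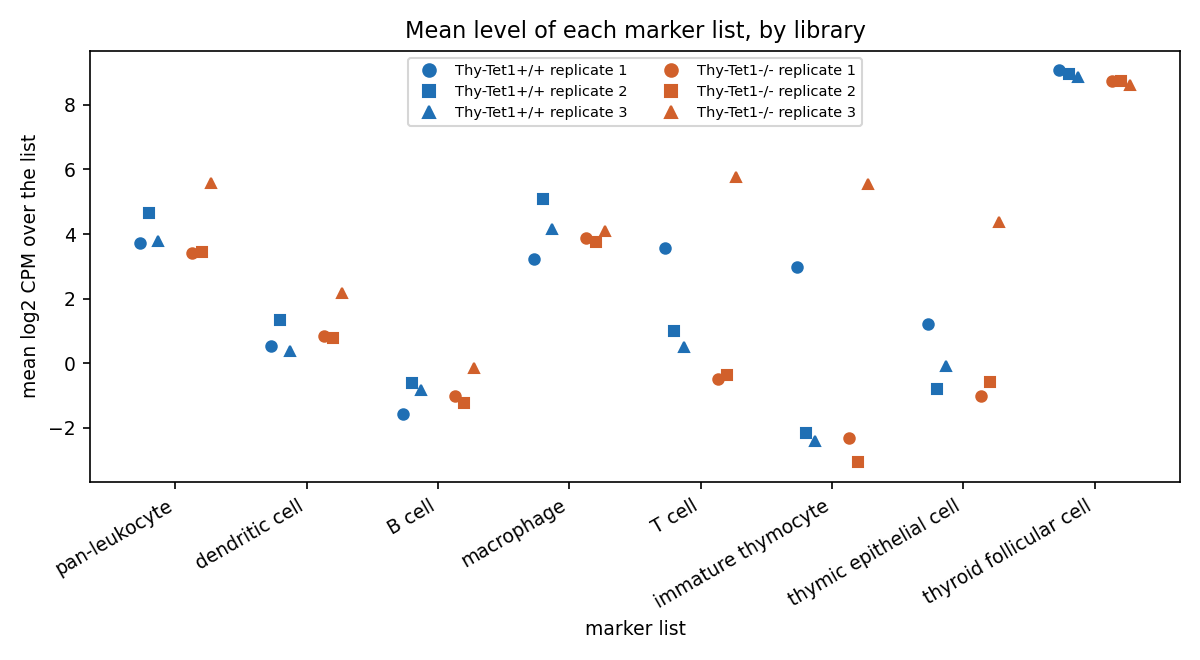
Mean log2 CPM of each marker list by library. Thy-Tet1-/- replicate 3 and Thy-Tet1+/+ replicate 1 stand above the rest for immature thymocyte markers, the macrophage list is highest in Thy-Tet1+/+ replicate 2, and the follicular list lies between 8.61 and 9.07 with all Thy-Tet1-/- libraries below all controls.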

How the data were processed

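The authors deposited whole-number read counts per gene for 6 thyroid libraries in 1 table, with no normalization. Per the labels, reads were aligned to mm10, and the aligner and the counter are not given in the sources used here. The library text names directional kits. Symbols turned into dates by a spreadsheet were restored for 27 genes, and 4100 genes had no count. Libraries were assigned by title, with columns C and T matched to the control and treatment titles by letter and number.

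Counts were filtered with filterByExpr, scaled by TMM and tested with the quasi-likelihood test of edgeR 4.0.16 in R 4.3.3 over all 6 libraries, with Benjamini-Hochberg adjustment over 14143 genes. log2 CPM used a prior count of 2. The fit was tested on simulated data. The limits (1.5-fold, p 0.05) are those of the study, whose methods name no tool for sequencing counts. The main fit had no replicate block: deviations of same-numbered libraries correlated at -0.167, -0.372 and -0.193. No pair of replicates agreed within sampling noise. Alternatives were RLE factors, DESeq2 1.42.0, limma-voom (limma 3.58.1), no filter, at least 10 counts in every library, the replicate block, scaling to 10 epithelial genes, a pan-leukocyte covariate and each library left out. A robust fit, and the fits without both libraries low in H2-Eb1 and without both libraries high in thymocyte markers, were chosen after seeing the data.

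The genes and lists were chosen with earlier results of these data known. Named genes were the 10 genes, the pathway genes that met the limits or, up to 3 per list, had the smallest p, the most abundant marker of each immune list and any marker that met the limits, the 5 genes closest to the class II profile, and Tet1. Promoters are from RefSeq (GRCm38.p6), transcripts and exons from GENCODE for GRCm38. Intervals of fold changes are from the edgeR fit and take in the spread between the libraries of each group.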

Additional observations from a re-analysis of the deposited data

How the results depend on the processing

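Each fold change of the 10 genes was recomputed under 17 alternatives, and of these 170 values 153 kept their direction and their side of the limits, 6 passed the limits and 11 turned direction. No member had an adjusted p under 0.05 under any of them. One member met the limits with the leukocyte covariate (Cd74, 1 of 10), with scaling to epithelial genes (Ciita, 1 of 10) and without both libraries high in thymocyte markers (Cd74, 1 of 10). Leaving out 1 library gave 0 to 1 members, 3 to 6 pathway genes, 1074 to 1502 tested genes past the limits and 0 to 1 genes with an adjusted p under 0.05. Pathway genes past the limits numbered 8 with epithelial scaling and 10 without both libraries high in thymocyte markers. In the latter fit 2708 of 14223 genes had an unadjusted p under 0.05, beside 2676 of 14143 in the main fit. Epithelial scaling moved the median of all genes by 0.26 (log2) and gave 2016 genes past the limits, 91.3% of them higher, against 1301 and 60.2%. The scaling genes were themselves mostly lower in Thy-Tet1-/-, with a median log2 fold change of -0.33. Genes with an adjusted p under 0.05 numbered 1164 with DESeq2, 25 with at least 10 counts in every library, 3 with the leukocyte covariate, and 0 with epithelial scaling and without either pair of libraries.

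With the replicate block, 0 genes had an adjusted p under 0.05, and Tap1 turned to 0.04. The numbers share only a label, and the block changed no other call among the 10 genes. Epithelial scaling turned H2-Ab1 to 0.03, Tap1 to 0.31, Psmb5 to 0.04 and Psmb7 to 0.11. Tap1 was also 0.00 with at least 10 counts in every library and 0.04 without both libraries low in H2-Eb1. With the leukocyte covariate Lck was -0.10 and Prss16 -0.84, and without both libraries high in thymocyte markers Lck was -0.39, Prss16 -1.32 and Coro1a -0.63. Over single libraries left out, values ran from -0.70 to 0.08 for B2m, -0.69 to 0.07 for H2-Ab1, -1.07 to 0.33 for H2-Eb1, -0.27 to 0.43 for Tap1, -0.86 to 0.04 for C1qa, -0.01 to 0.13 for Cd79b, -0.65 to 1.34 for Coro1a, -1.09 to 2.06 for Lck and -2.48 to 4.21 for Prss16. The cause of these shifts was not tested.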

Other observations

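Class I genes outside the 10, named after their values were seen, followed single libraries. H2-Q10, a nonclassical class I gene of the H-2 complex, had 482 counts in Thy-Tet1-/- replicate 1 and 1 to 47 counts in the other 5 libraries (edgeR adjusted p = 0.365). H2-Q1 had 142 counts in Thy-Tet1+/+ replicate 1 and 1008 in Thy-Tet1-/- replicate 3, against 5 to 29 in the other 4. H2-T3, which encodes the TL antigen known from thymocytes and intestinal epithelium, had 27 and 268 counts in these 2 libraries and 0 to 13 in the rest. They are the libraries that held Rag1, and the part of thymic RNA in these counts was not tested. Socs1, an inhibitor of interferon signalling, had 194 counts in Thy-Tet1-/- replicate 3 and 19 to 51 counts in the other 5 libraries.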
